A study of Mus musculus with 8 samples.

Results

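The clustered protocadherin genes were taken as all genes of the count table whose GENCODE M21 symbol begins with Pcdha, Pcdhb or Pcdhg, which gave 58 of 43309 genes. They comprise 14 Pcdha, 22 Pcdhb and 22 Pcdhg genes, and all lie on the plus strand of mouse chromosome 18 (GRCm38). The cells were mouse embryonic stem (ES) cells, which are derived from the blastocyst and can form all tissues of the body, and their RNA was profiled in 8 libraries that form 4 groups of 2. Libraries were labelled WT for Zbtb24 wild-type (2lox/+) lines, the controls, or KO for Zbtb24 knockout (1lox/1lox) lines. Each genotype was profiled from 1000 cells (about 10 ng RNA and 10 PCR cycles) and from 100 cells (about 1 ng RNA and 18 PCR cycles), so that input and PCR cycles cannot be told apart. All lines share the 129SV background of J1 cells and were grown in serum on gelatin without feeder cells, and cells went into the SMARTer Ultra Low RNA Kit without RNA isolation. The labels do not say which clone gave which library, so replicate 1 and replicate 2 are only names and the spread between them may be technical.

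Clustered protocadherins are cadherin-like surface proteins, best known from neurons, where each cell transcribes its own combination of isoforms and the combination serves self-recognition of axons and dendrites. In the Pcdha and Pcdhg clusters every isoform has its own promoter and its own first exon, which is spliced to constant exons shared by the whole cluster. Most Pcdhb genes consist of 1 exon. Promoters of alternate isoforms are chosen with the help of the DNA-binding protein CTCF and the cohesin complex, they are DNA-methylated when silent, and the C-type isoforms at the ends of the Pcdha and Pcdhg clusters follow a rule of their own. ES cells are not known as a site of high protocadherin expression.

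The gene structure sets what the counts can show. The Pcdha genes (chr18:36930184-37187661) overlap each other at their constant exons, and so do the Pcdhg genes (chr18:37661793-37841873). A fragment that touched 2 genes was discarded in the counting, so that only the exon bases that belong to 1 gene alone were countable. These were a median of 46.4% of the exon bases of a Pcdha gene and 54.7% of those of a Pcdhg gene, mostly in the variable first exon, against 100% for the Pcdhb genes (chr18:37264938-37524479), of which 18 of 22 have a single exon in all transcripts. A count of a Pcdha or Pcdhg gene therefore stands for its own isoform and leaves out fragments of the constant exons. No base of Pcdhga10 was countable, and its count of 0 carries no information. The table holds 2 identifiers named Pcdha11, and Pcdhgb8 is annotated as a polymorphic pseudogene.

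Library totals ran from 9666985 to 16686525 counts. Zbtb24 had 244 and 201 counts in the WT libraries of 1000 cells, 526 and 545 in the KO libraries of 1000 cells, 197 and 269 in the WT libraries of 100 cells, and 532 and 494 in the KO libraries of 100 cells. The targeted gene was thus higher in the libraries labelled KO, with a log2 ratio of 1.37 ± 0.11 (SE) at 1000 cells (edgeR adjusted p = 4.33e-11). Counts over all its exons cannot show a deletion of a part, so this neither checks nor refutes the labels, and every direction below is that of the libraries as labelled.

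Markers of brain cells stood apart in both KO libraries of 100 cells. Of the markers listed, 9 of 10 neuron genes, 6 of 6 oligodendrocyte genes and 6 of 6 astrocyte genes were higher in both of these libraries than in every other library. Their oligodendrocyte markers summed to between 255 and 263 cpm (counts per 1000000 counts of a library, its total scaled with the TMM factor of edgeR), against 42.9 to 53.5 in the other 6 libraries. Astrocyte markers summed to between 208 and 216 cpm against 73.9 to 153, and neuron markers to between 545 and 565 against 409 to 536, a sum that is mostly Stmn2 in every library. Stmn2 was the neuron gene that was not higher, with a mean of 356 cpm in these libraries and 382 to 477 in the other groups. Mbp, a myelin protein, had 1416 and 1360 counts in the KO libraries of 100 cells and 15 to 34 in the others, and Snap25, a synaptic vesicle fusion protein, had 1121 and 1021 against 17 to 44. No listed marker of these 3 cell types was at 0 in all of the other 6 libraries. ES cell markers were high throughout, at 5277 to 6811 cpm in the other libraries and 6160 to 6228 in these, and fibroblast markers summed to 2.68 and 3.17 cpm in these and to 0.692 to 1.21 in the others. The part of these transcripts in the protocadherin values of the KO libraries of 100 cells was not tested, and in bulk RNA a change in the cells present and a change in RNA per cell cannot be told apart.

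Clustered protocadherins were a small part of the ES cell transcriptome, and the Pcdhg cluster held most of their counts. Its part was 578 of 603 counts in WT at 1000 cells and 459 of 589 in KO at 100 cells. The 58 genes together had between 188 and 318 counts in a library, or 14.3 to 24.2 cpm without TMM scaling. Of the 58, 51 had at least 1 count in some library, namely 10 of 14 Pcdha, 20 of 22 Pcdhb and 21 of 22 Pcdhg genes. Without the KO libraries of 100 cells, a choice made after the data were seen, the numbers were 37 in all, with 4 Pcdha, 12 Pcdhb and 21 Pcdhg genes. The 7 genes at 0 in every library were Pcdha2, Pcdha4, Pcdha8, Pcdha11 (ENSMUSG00000007440), Pcdhb1, Pcdhb2 and Pcdhga10. At these depths a 0 says that a transcript was not detected, not that it was absent.

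**Figure D1:**
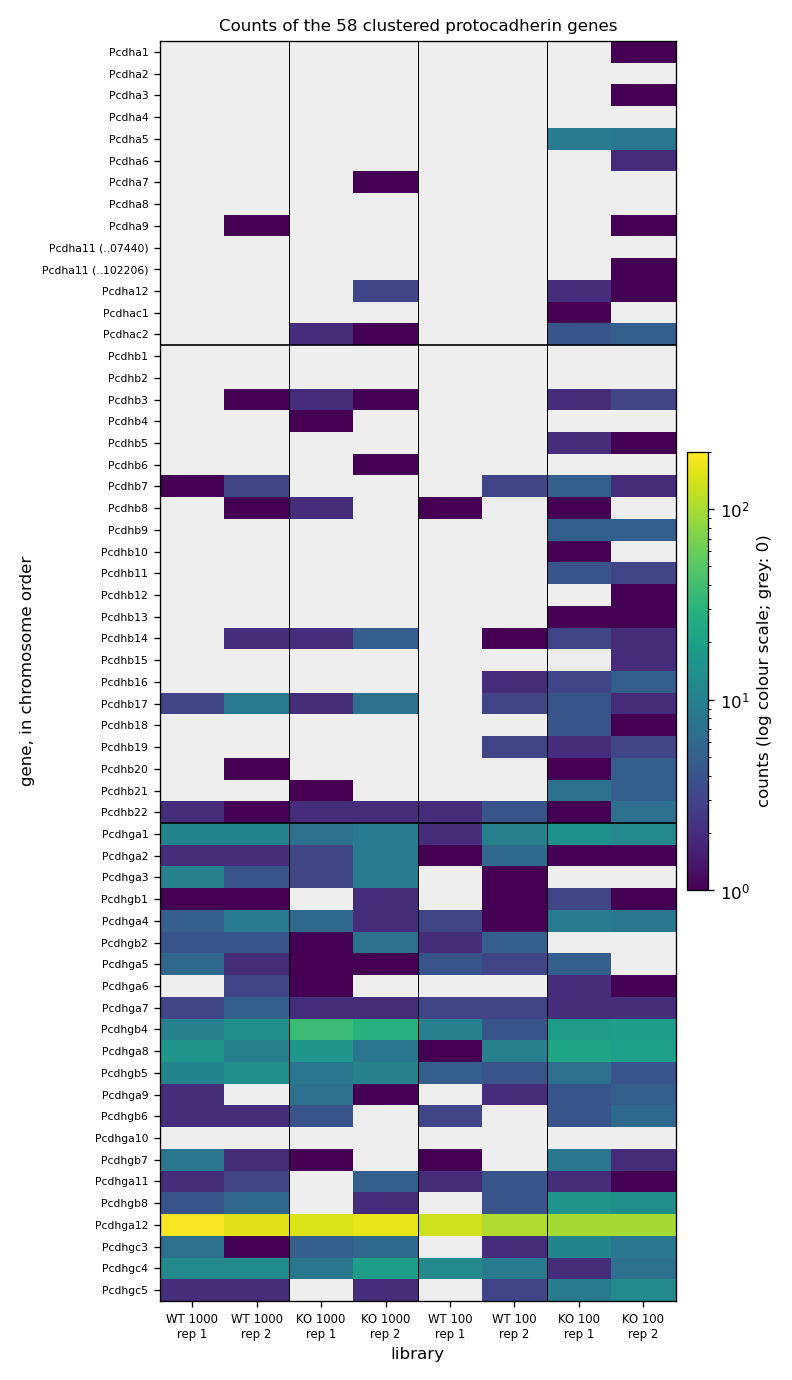
Heat map of the counts of the 58 genes (rows, in chromosome order, with lines between the Pcdha, Pcdhb and Pcdhg clusters) in the 8 libraries (columns), on a log colour scale with 0 in grey. Pcdhga12 is the brightest row in every library, at 97 to 194 counts, and the Pcdha and Pcdhb rows are filled mainly in the 2 KO libraries of 100 cells.

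At 1000 cells the WT libraries summed to 19.9 ± 2.62 cpm for the Pcdhg cluster (SD, n = 2), and the KO libraries to 19.97 ± 0.0262 cpm. At 100 cells these sums were 15.9 ± 3.38 cpm for WT and 17.2 ± 0.748 cpm for KO. At both inputs the 2 KO libraries lay between the 2 WT libraries. For the Pcdhb cluster the WT and KO libraries of 1000 cells summed to 0.909 ± 0.795 and 1.02 ± 0.124 cpm, and those of 100 cells to 0.751 ± 0.643 and 3.53 ± 0.138 cpm. The Pcdha cluster had 0 and 1 count in the WT libraries and 2 and 5 in the KO libraries of 1000 cells, 0 in both WT libraries of 100 cells, and 16 and 20 in the KO libraries of 100 cells. Pcdha and Pcdhb sums thus stood higher in both KO libraries of 100 cells than in any other library, as did the brain cell markers. The Pcdhg sum did not, but it includes Pcdhga12, the member with most counts. Without Pcdhga12, the Pcdhg sum was 10.5 and 9.29 cpm in these KO libraries and 4.84 to 8.83 in the others.

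Per length, Pcdhg again stood highest in every group, but Pcdha lay above Pcdhb in KO at 100 cells (0.0443 against 0.0393 cpm per kb). Divided by its countable exon length, the Pcdhg cluster stood at 0.271 to 0.341 cpm per kb in the 4 group means, the Pcdhb cluster at 0.00836 to 0.0393, and the Pcdha cluster at 0 to 0.0443. Within Pcdhg, the gamma A isoforms stood at 0.409 to 0.557 cpm per kb and the gamma B isoforms at 0.0838 to 0.187. Most of the gamma A sum was Pcdhga12, so this contrast does not describe the other gamma A isoforms. Pcdhga12 had 12.07 of 15.72 and 11.45 of 14.82 cpm in WT and KO at 1000 cells. At 100 cells these were 10.75 of 13.05 and 7.32 of 11.55 cpm. The 5 C-type isoforms of both clusters together stood at 0.0723 to 0.143 cpm per kb. According to the paper, coverage in SMARTer libraries appeared biased to the 3' end. Countable Pcdha and Pcdhg bases are mostly first exons, so levels per length are not like for like with those of Pcdhb.

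**Figure D2:**
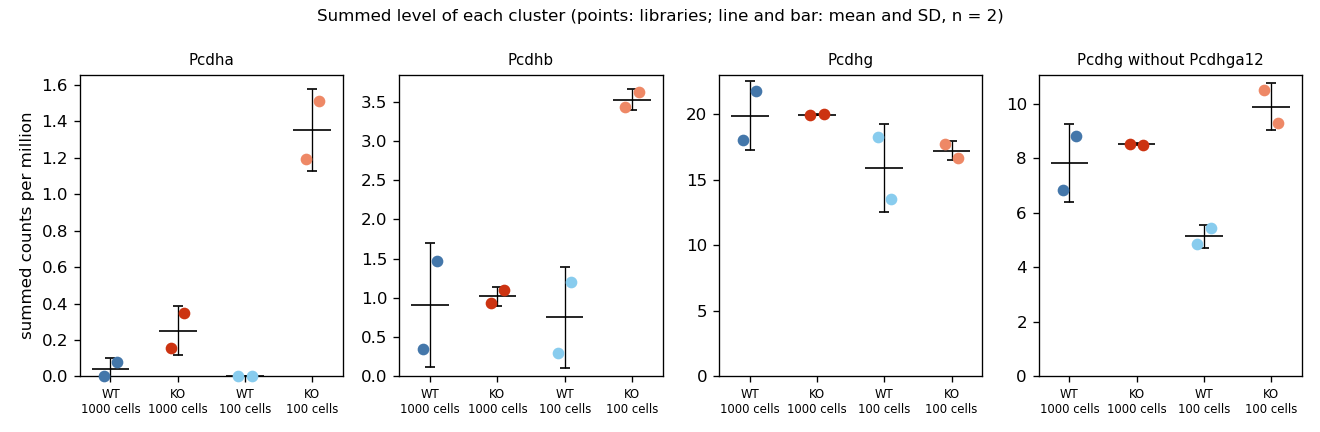
Summed level of the Pcdha, Pcdhb and Pcdhg genes, and of Pcdhg without Pcdhga12, in cpm (vertical axes from 0) for WT and KO at each input; points are libraries, horizontal lines means and bars SD (n = 2). The KO libraries of 100 cells are the highest for Pcdha (16 and 20 counts) and Pcdhb (46 and 48 counts), and for Pcdhg they lie between the 2 WT libraries of their input. For Pcdhg without Pcdhga12 they are the highest.

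The Pcdhg sum was largely that of a single isoform. Pcdhga12 (ENSMUSG00000102428.1, chr18:37765580-37841873), the last of the gamma A isoforms in the cluster and a gene whose promoter methylation is known as a tumor marker in human lung, held 1103 of the 2156 counts of all members (51.2%). It had 194 and 158 counts in WT and 147 and 166 in KO at 1000 cells, and 136 and 107 in WT and 97 and 98 in KO at 100 cells. Its share of all member counts was 58.4% and 63.5% in WT at 1000 and 100 cells, 53.9% in KO at 1000 cells and 33.1% in KO at 100 cells. Without Pcdhga12, the WT and KO libraries summed to 7.83 ± 1.42 and 8.52 ± 0.0228 cpm of Pcdhg at 1000 cells, and to 5.13 ± 0.415 and 9.90 ± 0.867 cpm at 100 cells.

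Ordered by mean level per kb of countable exon over the 8 libraries, Pcdhga12 stood first at 2.52 ± 0.601 cpm per kb (SD over 8 libraries). Pcdhga8 followed at 0.456 ± 0.251, Pcdhgb4 at 0.372 ± 0.227, Pcdhga4 at 0.261 ± 0.158 and Pcdhga1 at 0.250 ± 0.0983 cpm per kb. The next were Pcdhgc4 at 0.224 ± 0.111, Pcdhgc3 at 0.197 ± 0.151, Pcdhgb8 at 0.171 ± 0.185, Pcdhga11 at 0.142 ± 0.0929 and Pcdhgb5 at 0.128 ± 0.0580 cpm per kb. Pcdhga12 did not overlap any of the others, since its lowest library (1.75 cpm per kb) lay above the highest of Pcdhga8 (0.822). From Pcdhga8 on, neighbours in the order differed by less than their spread. Pcdhgb8 owed its place to the KO libraries of 100 cells, since over the other 6 libraries it stood at 0.0775 cpm per kb and ranked 15, while the 9 others stayed among the first 10. No Pcdha or Pcdhb gene was among these 10. Divided by all exon bases instead, Pcdhb17 ranked 10 and Pcdhga11 ranked 18. Per countable kb, the highest Pcdha gene was Pcdha5 at 0.0679 cpm per kb, with counts in the KO libraries of 100 cells only. The highest Pcdhb gene was Pcdhb17 at 0.0597 cpm per kb, with 3 and 9 counts in WT and 2 and 7 in KO at 1000 cells.

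**Figure D3:**
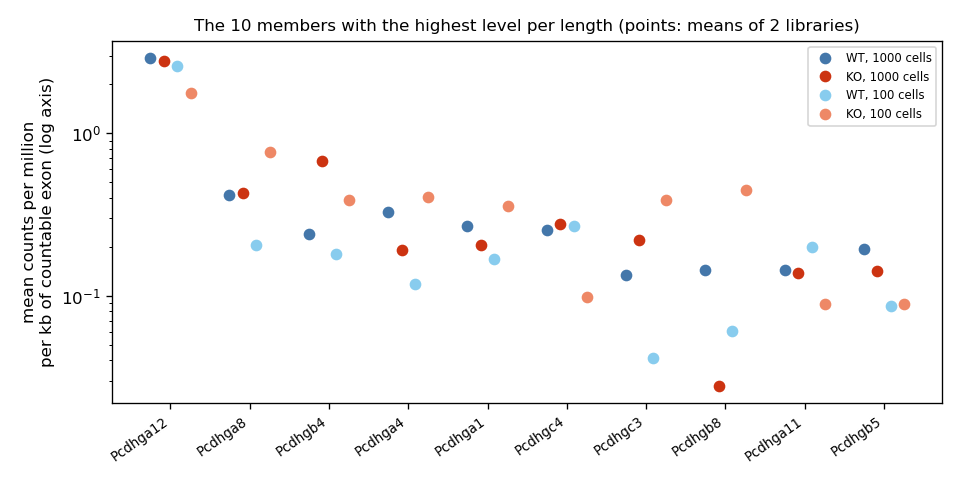
Mean level of the 10 members with the highest level per length, in cpm per kb of countable exon (vertical log axis), for each of the 4 groups (points, means of 2 libraries). Pcdhga12 lies above all others in every group, and the 9 others overlap.

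The comparison of KO with WT asks which genes depend on Zbtb24, a zinc finger protein mutated in a form of the ICF syndrome, in which DNA methylation is lost at certain repeats. Only members with at least 10 counts in some library were tested, and these were 10 of 58, all of them Pcdhg genes, namely Pcdhga1, Pcdhga3, Pcdhga8, Pcdhga12, Pcdhgb4, Pcdhgb5, Pcdhgb8, Pcdhgc3, Pcdhgc4 and Pcdhgc5. Pcdhgb8, Pcdhgc3 and Pcdhgc5 reached 10 counts in the KO libraries of 100 cells alone, so that the number that moved among those tested is a description.

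At 1000 cells, 1 of the 10 tested members passed the threshold between KO and WT, and it was higher in KO. Over all 16816 tested genes, 41.5% passed it, 20.9% higher and 20.6% lower. The member was Pcdhgb4 (ENSMUSG00000103585.1, chr18:37720369-37841870), a gamma B isoform. It had 10 and 14 counts in the WT libraries and 37 and 29 in the KO libraries, or 0.861 ± 0.400 against 2.44 ± 0.613 cpm. All KO libraries lay above all WT libraries, by a log2 ratio of 1.55 ± 0.41 (SE) (edgeR quasi-likelihood test, adjusted p = 0.0028). Without each of the 4 libraries in turn its log2 ratio lay between 1.08 and 2.05, and without replicate 1 of WT the call was lost (edgeR adjusted p = 0.0584).

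Pcdhga12, which is counted most firmly, had a log2 ratio of -0.07 ± 0.15 at 1000 cells (edgeR adjusted p = 0.749), and its WT and KO libraries overlapped. The log2 ratios of the 8 other tested members ran from -2.11 (Pcdhgb8) to 0.58 (Pcdhgc3), and none passed the threshold. Their standard errors of 0.51 to 1.51 leave room for changes of a size that these counts could not show. Over the 10 tested members the median log2 ratio was -0.08, and over all tested genes it was -0.000886.

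Members too low for the test can only be described by their overlap between groups. Of the 35 members with a count in the 4 libraries of 1000 cells, 4 had both KO libraries above both WT libraries (26.4% of all genes with a count there) and 6 had both below (27.7%). The 4 that were higher were Pcdhac2, Pcdhb22, Pcdhga2 and Pcdhgb4. The C-type isoform Pcdhac2, known for its role in the spacing of serotonergic axons, had 0 counts in WT and 2 and 1 in KO. Of the 6 that were lower, Pcdhgb7 had 8 and 2 counts in WT and 1 and 0 in KO, and the others were Pcdhb7, Pcdhga1, Pcdhga5, Pcdhga7 and Pcdhgb8. These genes were named after their values were seen, and their shares are below the background in both directions. That background was not matched for count level, and libraries tied at 0 cannot separate. Of the 58 members, 43 had at most 3 counts in both WT libraries and 42 in both KO libraries of 1000 cells.

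At 100 cells, 1 of the 10 tested members passed the threshold between KO and WT, again in the direction of KO. In all, 34.2% of the tested genes passed it, 17.6% higher and 16.6% lower. The member was Pcdhgb8 (ENSMUSG00000103081.1, chr18:37761801-37841870), with 0 and 4 counts in the WT libraries and 16 and 14 in the KO libraries. The fitted log2 ratio was 2.63 ± 0.87 (edgeR adjusted p = 0.0419), and the ratio of the summed counts was 6.58 with a counting interval (95%, exact) of 2.32 to 25.7. As it reached 10 counts in these KO libraries alone, the filter favoured this direction and the call is a description. DESeq2 did not call it (adjusted p = 0.112), nor did edgeR with no filter beyond 1 count (adjusted p = 0.0639) or without KO replicate 1 or 2 (edgeR adjusted p = 0.199 and 0.152). Both KO libraries behind it hold the brain cell markers.

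Pcdhgc3, known for promoting dendrite branching, had 0 and 2 counts in WT and 11 and 8 in KO (log2 ratio 2.89 ± 1.03, edgeR adjusted p = 0.0552). Pcdhgc5 had 0 and 3 counts in WT and 9 and 12 in KO (2.51 ± 0.97, edgeR adjusted p = 0.0726), and Pcdhga8 had 1 and 10 in WT and 23 and 20 in KO (1.75 ± 0.67, edgeR adjusted p = 0.0691). Each of these 3 stood higher in both KO libraries than in both WT libraries without passing the threshold. With Pcdhgb8 these 3 make the 4 members called by limma-voom and by 1 edgeR fit of all 8 libraries. Of the 4, all but Pcdhga8 reached 10 counts in these KO libraries alone. The filter thus favoured this direction, and the calls are a description. Both KO libraries hold the brain cell markers, whose part in these values was not tested. Pcdhga12 and Pcdhgc4 stood on the other side. Pcdhga12 had a log2 ratio of -0.59 ± 0.26 (edgeR adjusted p = 0.107), and Pcdhgc4, an isoform needed for the survival of cortical interneurons, had 12 and 9 counts in WT and 2 and 7 in KO (-1.45 ± 0.76, edgeR adjusted p = 0.168). Pcdhgb4, the member called at 1000 cells, had 10 and 4 counts in WT and 18 and 19 in KO, with a log2 ratio of 1.12 ± 0.61 (edgeR adjusted p = 0.185). Both KO libraries lay above both WT libraries at both inputs.

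**Figure D4:**
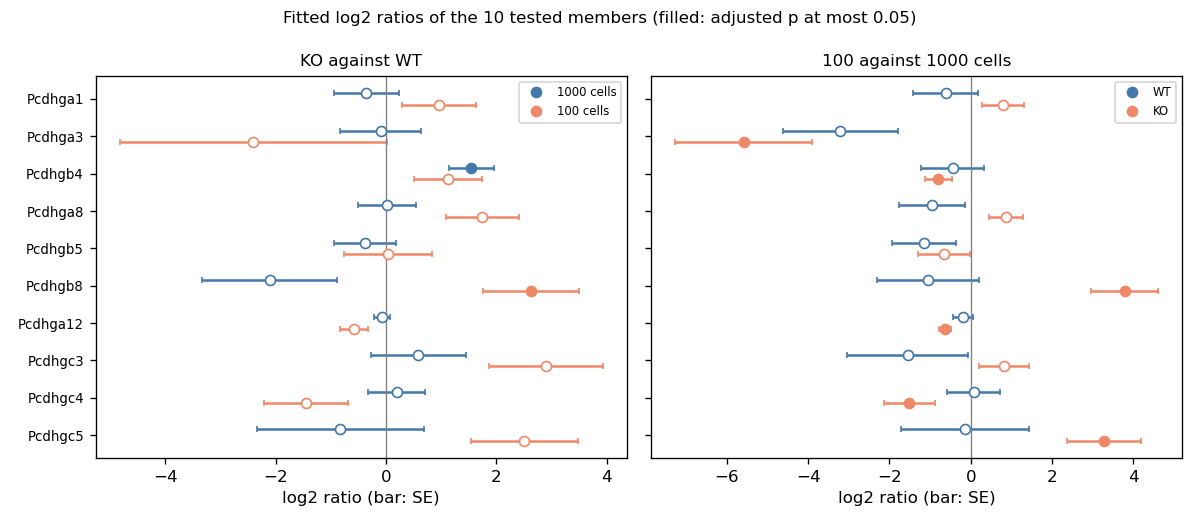
Fitted log2 ratios (horizontal axes) of the 10 tested members for KO against WT at 1000 and 100 cells (left) and for 100 against 1000 cells in WT and KO (right); points are edgeR estimates, bars SE, and filled points have an adjusted p of at most 0.05. Pcdhgb4 is filled at 1000 cells (1.55) and Pcdhgb8 at 100 cells (2.63) on the left, and 6 members are filled for KO, and none for WT, on the right.

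At low counts, more members separated at 100 cells. Of the 48 members with a count in these 4 libraries, 25 had both KO libraries above both WT libraries and 6 had both below. The background was 32.0% above and 25.5% below. Of all members, 27 had a count in either WT library and 46 in either KO library. A member counted in KO alone could not come out lower there, so the 25 against 6 is a description. The part of the brain cell transcripts in it was not tested. The 25 consist of 3 Pcdha, 10 Pcdhb and 12 Pcdhg genes, and the 6 are all Pcdhg genes, namely Pcdhga2, Pcdhgb2, Pcdhga7, Pcdhga11, Pcdhga12 and Pcdhgc4. Alternate Pcdha isoforms are known to need other protocadherins to reach the cell surface. Summed over the cluster, Pcdha had 36 counts in KO and 0 in WT, and the counting interval of this ratio had a lower end of 8.13. Pcdhb was 4.34-fold higher in KO than in WT, with a counting interval of 2.63 to 7.53. At 1000 cells the ratio of the Pcdhb sums was 1.26, with a counting interval of 0.704 to 2.27. Intervals and lower ends of this kind cover counting error only, not the spread between libraries.

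Among these, 6 members had counts in both KO libraries of 100 cells and in none of the other 6 libraries, and they were chosen after their values were seen. They were Pcdha5 (9 and 8 counts), Pcdhb9 (5 and 5), Pcdhb11 (4 and 3), Pcdhb18 (4 and 1), Pcdhb5 (2 and 1) and Pcdhb13 (1 and 1). That is 6 of 51 members with a count, against 1.51% of all 28166 genes with a count. Among genes with 2 to 30 counts in all, it is 6 of 33 members against 4.80%. For Pcdha5 the counting interval of the ratio of KO to WT at 100 cells had a lower end of 3.62. That of the ratio of 100 to 1000 cells in KO had a lower end of 4.23. Of the 6 astrocyte markers, Aqp4 (38 and 34 counts) and S100b (54 and 41) had at most 1 count in each other library, while Slc1a3 and Aldoc were well counted in every library. The part of brain cell transcripts in the counts of these 6 members was not tested.

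**Figure D5:**
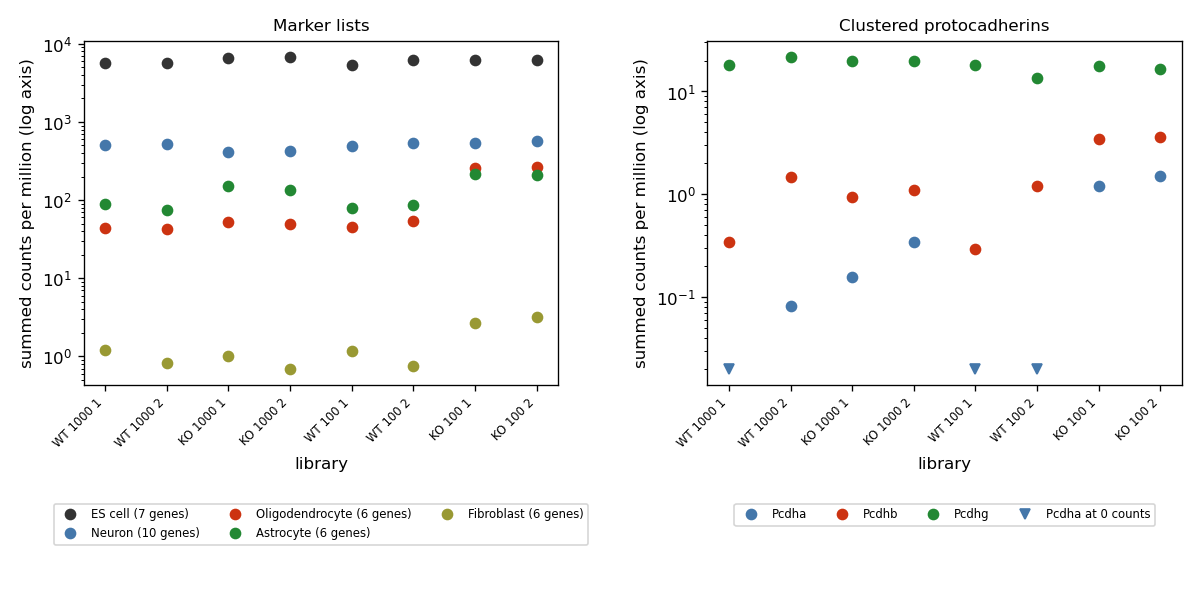
Summed levels in cpm (log axes) of the marker lists (left) and of the 3 clusters (right) in each of the 8 libraries (points); triangles mark libraries in which Pcdha had 0 counts. Oligodendrocyte and astrocyte markers, Pcdha and Pcdhb are highest in the 2 KO libraries of 100 cells. ES cell markers and the Pcdhg sum, which includes Pcdhga12, are not.

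Comparing 100 with 1000 cells asks what input and amplification do to the values. In WT, 0 of the 10 tested members passed the edgeR threshold, 1 had an unadjusted p under 0.05, and DESeq2 and limma-voom called 0. Without WT replicate 1 of 100 cells, Pcdhga12 was called (edgeR adjusted p = 0.0269). Of all tested genes, 0.827% passed it, while 2054 of 16816 had an unadjusted p under 0.05. The member with the low unadjusted p was Pcdhga3, with 10 and 4 counts at 1000 cells and 0 and 1 at 100 cells. Fewer members were detected at the lower input in WT, since 23 and 28 of the 58 had a count in the libraries of 1000 cells and 16 and 24 in those of 100 cells, which overlap. After thinning all libraries to the smallest total, these were 21 and 24 against 16 and 22.

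In KO, 6 of the 10 tested members passed the threshold between 100 and 1000 cells, 2 higher and 4 lower at 100 cells. Of all tested genes 52.1% passed it, 27.3% higher and 24.8% lower. This comparison shares its KO libraries with both comparisons of KO with WT. Its libraries of 100 cells hold the brain cell markers, so it does not compare input alone, and their part in these differences was not tested. Pcdhgb8 had 0 and 2 counts at 1000 cells and 16 and 14 at 100 cells (3.79 ± 0.82, edgeR adjusted p = 0.000211). Pcdhgc5 (ENSMUSG00000102543.1, chr18:37819513-37841873), the C-type isoform at the end of the cluster, had 0 and 2 counts at 1000 cells and 9 and 12 at 100 cells (3.28 ± 0.91, edgeR adjusted p = 0.00285). Both were higher in every library of 100 cells, and both entered the test through these libraries alone. The call of Pcdhgc5 was lost in DESeq2 (adjusted p = 0.0509). With 2 counts in the group of 1000 cells, their count ratios of 15.4 and 10.8 carry counting intervals of 3.90 to 133 and 2.63 to 94.7.

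The members that fell included those with most counts in ES cells. Pcdhga12 fell by 0.64 ± 0.15 on the log2 scale (edgeR adjusted p = 0.000492), from 11.4 ± 0.0491 to 7.32 ± 0.118 cpm, and was called under each of the 13 alternatives tried. Pcdhgb4 fell by 0.79 ± 0.33 (edgeR adjusted p = 0.0408) and was called under 5 of 13 alternatives, but not without KO replicate 1 of 1000 cells (edgeR adjusted p = 0.28) or without KO replicate 1 or 2 of 100 cells (0.155 and 0.112). Pcdhgc4, with 8 and 19 counts at 1000 cells and 2 and 7 at 100 cells, fell by 1.51 ± 0.63 (edgeR adjusted p = 0.0424) and was called under 6 of 13, but not without KO replicate 2 of 1000 cells (edgeR adjusted p = 0.386) or KO replicate 1 of 100 cells (0.337). Pcdhga3 (ENSMUSG00000104346.1, chr18:37674307-37841873) went from 3 and 9 counts to 0 in both libraries (edgeR adjusted p = 0.00604). The counting interval of its ratio of 100 to 1000 cells had an upper end of 0.369. Pcdhga3 was lower at 100 cells in WT too, at 1 count against 14. Pcdhgb2, a gamma B isoform that was too low for the test and is named after its values were seen, went from 1 and 7 counts to 0 in both KO libraries and had 2 and 5 in the WT libraries of 100 cells.

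In KO, more members had counts at the lower input, in the libraries that hold the brain cell markers. Of the 58 members, 25 and 26 had a count in the KO libraries of 1000 cells and 39 and 42 in those of 100 cells, and after thinning these were 23 and 23 against 37 and 34. Members with more than 10 counts after thinning numbered 1 and 4 in the WT libraries of 1000 cells, 2 and 1 in those of 100 cells, 3 and 3 in the KO libraries of 1000 cells and 4 and 3 in those of 100 cells.

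Whether the ratio of KO to WT differed between the inputs was tested as an interaction. Of the 10 tested members, 1 passed the threshold and its difference was positive. Over all tested genes 16.3% passed it, and 9.28% were positive. This member was Pcdhgb8, with 4 and 6 counts in WT and 0 and 2 in KO at 1000 cells and the opposite order at 100 cells, a difference of 4.78 ± 1.49 on the log2 scale (edgeR adjusted p = 0.0406). The gene was tested only because of its counts in the KO libraries of 100 cells. The call was lost in DESeq2 (adjusted p = 0.0713), after thinning (edgeR adjusted p = 0.0853) and without any 1 of the WT libraries of 1000 cells or the KO libraries of either input (edgeR adjusted p between 0.0694 and 0.156), while without WT replicate 2 of 100 cells 4 members were called. For Pcdhgb4 the difference was -0.36 ± 0.77 (edgeR adjusted p = 0.787), which does not show that its ratios were alike.

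Genes that act on protocadherin promoters were measured far more deeply than the members. Here and for the lists and flanking genes below, ratios at 100 cells use the KO libraries that hold the brain cell markers. The part of those transcripts in these ratios was not tested. Of 8 regulators of promoters and loops, 2 were higher and 3 lower in KO at 1000 cells, and 2 were higher and 0 lower at 100 cells by edgeR, where 41.5% and 34.2% of all tested genes passed. Ctcf fell by 0.52 ± 0.07 on the log2 scale at 1000 cells (edgeR adjusted p = 2.03e-07) and did not pass at 100 cells. Stag1, a cohesin subunit, was higher at both inputs, by 0.22 ± 0.07 and 0.44 ± 0.12, but its call at 1000 cells was lost with scaling by total counts (edgeR adjusted p = 0.15), in DESeq2 (0.055), in 1 fit of 8 libraries (0.115), after thinning (0.059) and without WT replicate 1 or KO replicate 2, and that at 100 cells without KO replicate 1 or 2. Smc1a, another cohesin subunit, fell at the higher input and rose at the lower one.

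Of 11 genes of silencing and DNA methylation, 6 were lower and 0 higher in KO at 1000 cells, and 5 were lower and 1 higher at 100 cells. Of all tested genes, 20.6% were lower at 1000 cells and 16.6% at 100 cells. Dnmt3b, the de novo DNA methyltransferase known to methylate protocadherin promoters in the embryo, fell by 2.17 ± 0.08 at 1000 cells (edgeR adjusted p = 6.05e-19) and by 1.34 ± 0.10 at 100 cells (edgeR adjusted p = 4.78e-05). Dnmt3a fell by 1.01 ± 0.07 and 1.05 ± 0.10, and Dnmt3l, a cofactor of both, by 1.41 ± 0.07 and 1.35 ± 0.10. Cdca7, mutated in another form of the ICF syndrome, fell by 1.74 ± 0.07 and 1.46 ± 0.11, and its partner Hells, a chromatin remodeler, by 0.26 ± 0.06 and 0.38 ± 0.11, of which the second was lost without KO replicate 1 or 2 (edgeR adjusted p = 0.317 and 0.427). Smchd1, known to keep protocadherin clusters silent, did not pass the threshold between KO and WT at either input.

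Of 11 partners inside the cell and proteases that cleave protocadherins, 4 were higher and 0 lower in KO at 1000 cells, and 2 were higher and 1 lower at 100 cells. The 4 of 11 and 3 of 11 called are below the 41.5% and 34.2% of all tested genes. Fyn, a kinase, rose by 0.76 ± 0.14 and 1.15 ± 0.26 on the log2 scale. Nckap1, a subunit of the WAVE complex that alpha protocadherins recruit to actin, rose by 0.35 ± 0.06 and 0.63 ± 0.10, the second not without KO replicate 1 (edgeR adjusted p = 0.0882). Adam10, which sheds protocadherin ectodomains, did not pass at either input.

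Non-clustered protocadherins are single genes outside these clusters. Pcdh1 and Pcdh12 lie near the Pcdhg cluster and are counted among the flanking genes below as well. Of 12 listed, 9 were tested, and by edgeR 0 passed between KO and WT at 1000 cells (41.5% of all tested genes did) while 5 passed at 100 cells (34.2%), all higher in KO. Of the 9, 7 had at most 4 counts in every other library and reached 10 counts through the KO libraries of 100 cells alone, so that this count and its direction were largely set by the filter and are a description. Pcdh9 had 83 and 81 counts in these libraries and at most 1 in any other, and Pcdh7 had 37 and 31 and at most 1. Pcdh17 (19 and 13 counts), Pcdh10 (15 and 16) and Pcdh20 (10 and 12) had at most 4 elsewhere. The same libraries held the highest Pcdha and Pcdhb sums and the brain cell markers.

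Of 31 protein-coding genes around the clusters, within 500000 bases of the outermost members or between the clusters, 23 were tested. Of these 3 were higher and 6 lower in KO at 1000 cells, and 2 were higher and 4 lower at 100 cells. The 9 of 23 and 6 of 23 called are below the 41.5% and 34.2% of all tested genes. Those called at both inputs were Wdr55 (fell by 0.86 ± 0.09 and 0.62 ± 0.12), Diaph1 (fell by 0.75 ± 0.09 and 0.58 ± 0.12), Slc35a4 (fell by 0.38 ± 0.08 and 0.50 ± 0.15) and Hdac3 (rose by 0.34 ± 0.08 and 0.40 ± 0.11). At 100 cells these 4 calls were each lost without KO replicate 1 and without KO replicate 2 (edgeR adjusted p between 0.0853 and 0.352). Taf7, a general transcription factor gene between the Pcdhb and Pcdhg clusters, had 1509 to 2922 counts and did not pass. Of 14 genes that are not members but share exons with them, Gm10545 overlaps exons of Pcdha11 (ENSMUSG00000102206) and Pcdha12. It had 4 and 9 counts in the KO libraries of 100 cells and 0 elsewhere. The 3 read-through genes Gm42416, Gm37013 and Gm37388, which are among both the 14 and the 31, had 0 counts throughout.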

How the data were processed

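Gene counts of 8 libraries were analysed. According to the labels and the study's methods, the authors removed rRNA reads (Bowtie2 2.1.0), aligned to mm10 (TopHat2 2.0.10) and counted fragments per GENCODE M4 gene without strand (HTSeq 0.6.1, union mode), so the deposited values are raw counts. GENCODE M21 gave symbols and exons (42425 of 43309 identifiers matched). The 16816 genes that reached 10 counts in some library were tested with edgeR 4.0.16 (R 4.3.3, TMM, quasi-likelihood, Benjamini-Hochberg over all tested genes, threshold 0.05), on the 4 libraries of each pairwise comparison and on all 8 for the interaction. The code was tested on simulated counts. Members and lists were chosen with earlier results of these data known. Members named with values were those called in any comparison and the 10 highest per countable kb, and genes called at both inputs were named from the lists and flanks. Alternatives were other scalings and filters, DESeq2 1.42.0, limma-voom (limma 3.58.1), thinning, a replicate block and leaving out each library. No sequence is shown, and promoters were not analysed here.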

Additional observations from a re-analysis of the deposited data

Results flagged for a closer look

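The KO/WT ratio of Pcdhgb8 differed between the inputs, by 4.78 on the log2 scale in the interaction test (edgeR adjusted p = 0.0406). Pcdhgb8 was tested only because of its counts in the KO libraries of 100 cells that drive this difference, and it was called under 7 of 15 alternatives, not in DESeq2 (adjusted p = 0.0713) or after thinning (edgeR adjusted p = 0.0853). Its KO libraries lay below WT at 1000 cells and above WT at 100 cells, where the log2 ratio was 2.63. The KO libraries of Pcdhga1 likewise lay below WT at 1000 cells (7 and 9 against 11 and 11 counts) and above WT at 100 cells (15 and 12 against 2 and 10 counts, log2 ratio 0.957), but the interaction did not pass the threshold (edgeR adjusted p = 0.305). For Pcdhga8 the libraries of 100 cells lay below those of 1000 cells in WT and above them in KO, where the log2 ratio was 0.87 (23 and 20 against 16 and 8 counts), and the interaction again did not pass (edgeR adjusted p = 0.176). The KO libraries of 100 cells, on which all 3 rest, are those with the brain cell markers, whose part in these differences was not tested.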

How the results depend on the processing

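Of 635 recomputed log2 ratios of the 10 tested members, 556 kept their direction and their side of the threshold. Between KO and WT at 1000 cells, the number of members called ranged from 0 to 1 when each library was left out. At 100 cells it was 0 with DESeq2 and with a mean of at least 10 counts, 4 with limma-voom and with 1 fit of 8 libraries, and 0 to 7 without each library. In WT, 100 against 1000 cells gave 0 to 1 without each library. In KO it gave 3 with DESeq2, 3 with a mean of at least 10 counts, 2 after thinning, and 4 to 6 without each library. For the interaction it was 0 with DESeq2, 0 with a mean of at least 10 counts, 0 after thinning, 2 with no filter beyond 1 count, and 0 to 4 without each library. Replicate numbers were not stated to pair libraries, and correlations of same-numbered deviations were 0.0986, 0.108, -0.0901 and -0.0363; with the replicate block, 4 members were called between KO and WT at 100 cells, and the other counts stayed within 1.5 times. Raising the mean to 10 counts leaves fewer members to test, and thinning removes counts; for the other settings the cause was not tested.

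The ratios that reversed passed the threshold neither as reported nor when reversed. For Pcdhga8 at 1000 cells, KO against WT was -0.0719 with total counts, -0.103 with limma-voom, -0.000686 with no filter and -0.000365 with a mean of at least 10 counts, and -0.65 to 0.50 without each library. For Pcdhgb5 at 100 cells it was -0.000601 with the replicate block, and -0.403 to 0.407 without each library. Without each library, KO against WT at 1000 cells ran from -0.462 to 0.615 for Pcdhgc4, -0.174 to 0.0292 for Pcdhga12, -4.03 to 0.028 for Pcdhgc5, -0.00901 to 2.17 for Pcdhgc3, -0.79 to 0.0481 for Pcdhgb5 and -0.975 to 0.413 for Pcdhga3. For 100 against 1000 cells in WT it ran from -0.373 to 0.476 for Pcdhgc4, -0.609 to 0.179 for Pcdhga12, -3.94 to 0.664 for Pcdhgc5, -4.85 to 0.00347 for Pcdhgc3 and -1.48 to 0.261 for Pcdhgb4. For the interaction it ran from -1.06 to 0.621 for Pcdhgb4 and -3.12 to 0.101 for Pcdhga3.

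Summed levels moved most when the member with most counts in the cluster was left out. For WT and KO, Pcdhg was then 7.83 and 8.52 cpm at 1000 cells and 5.13 and 9.90 at 100 cells. In KO, Pcdhb was then 0.699 and 3.30 cpm at 1000 and 100 cells, and Pcdha 0.714 cpm at 100 cells, where thinning gave 1.12. From members with a mean of at least 10 counts alone, Pcdhg was 14.7 and 15.8 cpm in WT and KO at 1000 cells, and 10.7 for KO of 100 cells, and no value could be given for Pcdha and Pcdhb. In KO at 1000 cells, where the replicates lie close, Pcdhg was 19.5 cpm with total counts, 19.9 with DESeq2 size factors and 20.2 after thinning. Members detected with at least 1 count, not more than 10, averaged 22.5 and 23.0 in WT and KO at 1000 cells and 19.0 and 35.5 at 100 cells, and without thinning those with more than 10 were 5 in each WT library of 1000 cells, and 6 in each KO library of 100 cells. Of the 10 members highest per length, 9 remained without the KO libraries of 100 cells, an alternative added after the data were seen.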
